A study of Homo sapiens with 4 samples.

Results

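The genes described here are the 5 that encode survival proteins of the BCL2 family (BCL2, BCL2L1, BCL2L2, MCL1 and BCL2A1) and the 3 that encode its pore-forming effectors (BAX, BAK1 and BOK). They were taken as the rows of the deposited count table whose Ensembl identifiers map to these symbols, which gave 8 of 78932 gene rows. The libraries are RNA-seq of RPMI 8226 cells, a line established from human multiple myeloma. Cells of the first group (2 libraries) were transfected with 50 nM of a locked nucleic acid (LNA) antisense oligonucleotide against the long noncoding RNA LINC01432, and cells of the second group (2 libraries) with a control LNA whose dose the labels do not state separately. RNA was collected at 72 h in both groups. An untransfected group was not analysed here, so what transfection does to both groups cannot be read from these libraries. Each group rests on 1 oligonucleotide in 1 cell line, and the labels do not say whether its libraries came from separate cultures, so the p-values cover no more than library-to-library spread, part or all of which may be technical.

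The BCL2 family decides whether the mitochondrial outer membrane stays intact. BAX and BAK1 can assemble into pores that release cytochrome c and so start the caspase cascade. The survival proteins hold these effectors in check and also bind the BH3-only proteins, which act as the death signals. Plasma cells and myeloma cells are known for a strong dependence on MCL1, a protein with a short life that has to be made continuously, while BCL2 and BCL-xL (the product of BCL2L1) vary between myelomas and are drug targets.

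The libraries held 20873393 and 26185342 gene counts with LINC01432 LNA and 29161298 and 24493148 with control LNA. The targeted RNA was lower: LINC01432 had 193 and 250 counts with LINC01432 LNA, against 598 and 440 with control LNA, a fold of 0.492 (edgeR adjusted p = 0.000228). All 10 plasma cell markers were counted well above the floor of 3 counts, with summed levels of 2980 and 3390 CPM (gene counts scaled by the size of the library) with LINC01432 LNA and 3390 and 3610 CPM with control LNA; of these markers CD38 rose, and TNFRSF17 and XBP1 fell. Markers of other cells were counted at low levels. The 8 T and NK cell markers summed to 1.91 and 2.65 CPM with LINC01432 LNA and to 1.37 and 1.79 CPM with control LNA, and 5 of them never exceeded 3 counts. The 8 myeloid markers summed to 5.97 and 7.92 CPM with LINC01432 LNA and to 4.84 and 5.09 CPM with control LNA, with LYZ and S100A8 listed at 0 throughout. The 8 fibroblast and endothelial markers summed to 6.11 and 7.33 CPM with LINC01432 LNA and to 4.22 and 4.56 CPM with control LNA. COL1A1, a collagen gene, had 74 and 106 counts with LINC01432 LNA and 53 and 60 with control LNA and was called as higher (1.81-fold, edgeR adjusted p = 0.0272). CD14 had 58 and 91 counts with LINC01432 LNA and 67 and 52 with control LNA, PECAM1 had 47 and 67 with LINC01432 LNA and 62 and 42 with control LNA, and neither passed. The part of such markers in the results was not tested.

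Of the survival transcripts, BCL2 and MCL1 rose with LINC01432 LNA, by 1.29-fold and 1.21-fold. BCL2L1 stood at 0.840 times its control level and did not pass the test, although it did with a correction for GC content. The effectors BAX and BAK1 did not pass in either direction. In bulk RNA, fewer cells with a transcript and less of it per cell cannot be told apart, and transcript counts say nothing of protein.

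Of the 8 genes, 6 had enough counts to be tested (edgeR quasi-likelihood test over 18680 genes, called at a Benjamini-Hochberg adjusted p under 0.05). In this comparison 2 of the 6 were called, and both rose. Among all genes tested, 11.9% were called, 7.50% higher and 4.37% lower with LINC01432 LNA. At an unadjusted p under 0.05, 2 of the 6 were higher and 1 lower, against 14.4% and 11.3% of all genes; DESeq2 called 2 and 0, against 7.61% and 4.97% of the 12885 genes for which it gave an adjusted p. The median log2 fold change was 0.14 over the 6 genes and 0.01 over all genes tested. In 5 of the 6, all but BAK1, the libraries of the groups did not overlap, 3 of them higher and 2 lower; 54.1% of all tested genes showed such a gap, 28.2% higher and 25.9% lower with LINC01432 LNA. For any one gene, permuting 2 and 2 libraries exactly gives no p smaller than 0.333, and each call therefore rests on the spread that edgeR pools over genes.

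**Figure D1:**
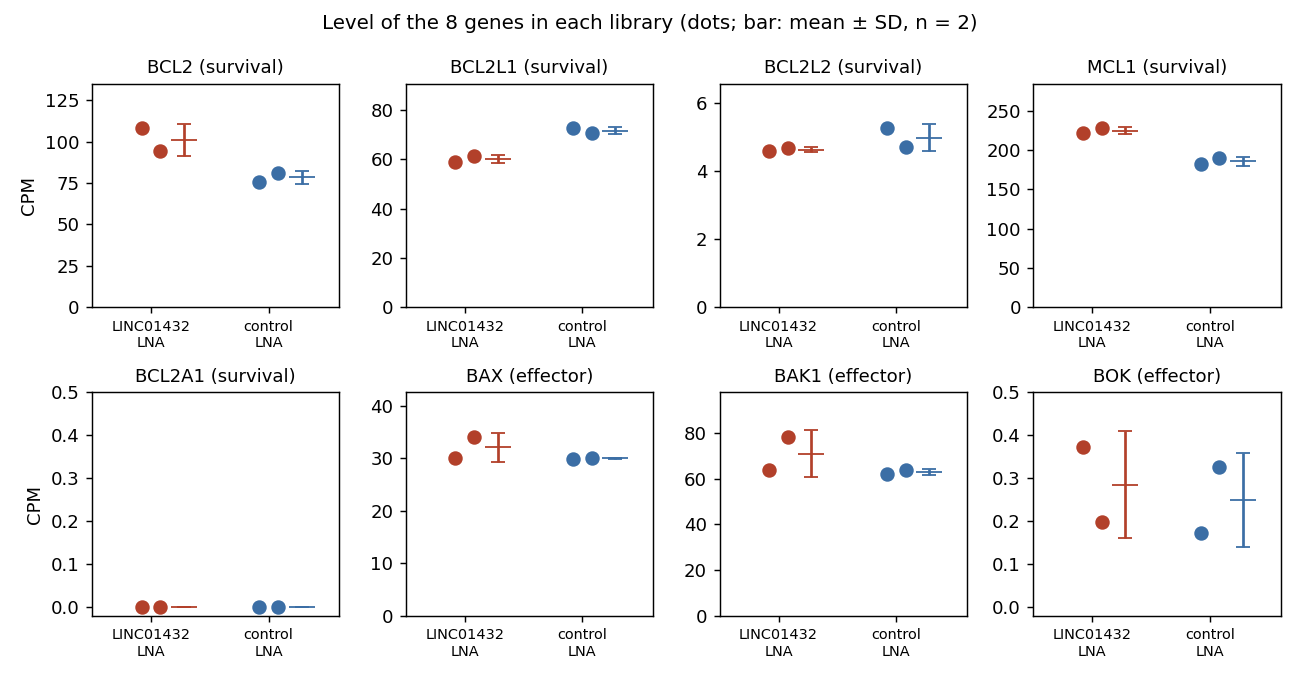
Level of each of the 8 genes in CPM (y axis, linear, a scale for each panel) in every library, with LINC01432 LNA on the left and control LNA on the right of each panel; dots are libraries and the bar beside them is the mean ± SD (n = 2). BCL2 and MCL1 are higher and BCL2L1 lower in both LINC01432 LNA libraries, BAK1 is spread between its LINC01432 LNA libraries, BOK lies under 0.4 CPM and BCL2A1 is at 0.

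MCL1 (ENSG00000143384, chromosome 1, 150574551 to 150579738, minus strand in GRCh38) encodes the short-lived survival protein that holds BAK1 and several BH3-only proteins. It was counted at 222 and 228 CPM with LINC01432 LNA and at 182 and 190 CPM with control LNA. Both LINC01432 LNA libraries lay above both controls, and libraries of a group differed little. The means were 225 ± 4.17 and 186 ± 5.56 CPM (SD, n = 2 each). The log2 fold change was 0.27 (standard error 0.08, 95% interval 0.10 to 0.44, edgeR adjusted p = 0.0424). The call was close to the threshold: with the median-of-ratios scaling the edgeR adjusted p was 0.0553, and without a filter on low counts it was 0.0576. Without control library 1 the log2 fold change was 0.23 (edgeR adjusted p = 0.689) and without control library 2 it was 0.29 (edgeR adjusted p = 0.512), so neither fit called it. Fits that left out a control library called few genes (3.82% of all genes without library 1, 5.27% without library 2), and fits that left out a LINC01432 LNA library called many (26.4% without library 1, 21.6% without library 2).

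BCL2 (ENSG00000171791, chromosome 18, 63123346 to 63320128, minus strand) encodes the founding member of the family, which binds BH3-only proteins such as BIM and is the target of venetoclax. It was counted at 108 and 94.2 CPM with LINC01432 LNA and at 75.6 and 81.1 CPM with control LNA. The groups did not overlap, and the LINC01432 LNA pair was the more spread, with library 1 the higher. The means were 101 ± 9.49 and 78.3 ± 3.90 CPM (SD, n = 2 each). The log2 fold change was 0.36 (standard error 0.09, 95% interval 0.17 to 0.56, edgeR adjusted p = 0.0212). Leaving out LINC01432 LNA library 1 gave 0.25 and leaving out library 2 gave 0.44, both called. Leaving out control library 1 gave 0.30 (edgeR adjusted p = 0.458) and leaving out control library 2 gave 0.40 (edgeR adjusted p = 0.184), and neither fit called it.

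BCL2L1 (ENSG00000171552, chromosome 20, 31664452 to 31723989, minus strand) encodes BCL-xL, which restrains both BAX and BAK1, and by alternative splicing a short form that promotes death. Counts per gene do not separate these forms. It was counted at 59.0 and 61.3 CPM with LINC01432 LNA and at 72.6 and 70.7 CPM with control LNA. Both LINC01432 LNA libraries lay below both controls, and the gap exceeded the spread within either pair. The means were 60.2 ± 1.64 and 71.6 ± 1.31 CPM (SD, n = 2 each). The log2 fold change was -0.25 (standard error 0.08, 95% interval -0.42 to -0.08, edgeR unadjusted p = 0.0079, adjusted p = 0.0604). The antisense gene ABALON covers 43.0% of the exonic bases of BCL2L1 and had 5 and 4 counts with LINC01432 LNA and 5 and 3 with control LNA; whether the counting used strand is not given in the sources used here.

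The GC content of a gene moved with its fold change in these libraries. Genes in the top decile by GC content had a median of 0.37 on the log2 scale, and those in the lowest decile -0.14. BCL2L1 has 57.2% GC in its exons and lies in decile 8, whose median was 0.06, while BCL2 (42.9%) and MCL1 (45.8%) lie in deciles 3 and 4, with medians of -0.08 and -0.05. With a correction for GC content the log2 fold change of BCL2L1 was -0.41 (edgeR adjusted p = 0.00407). With another form of the correction, added after the data were seen, it was -0.35 (edgeR adjusted p = 0.00806), and both called it as lower. The first correction moved the median to -0.03 over all genes tested and to -0.07 in decile 8. With the second form these medians were 0.01 and -0.01. DESeq2 did not call BCL2L1 (-0.26, adjusted p = 0.092), nor did edgeR without a filter on low counts (-0.27, adjusted p = 0.0791). Leaving out LINC01432 LNA library 1 gave -0.24 and library 2 gave -0.30. Leaving out control library 1 gave -0.25 and control library 2 gave -0.28. Of these fits, only those without a LINC01432 LNA library called BCL2L1. The GC corrections gave 0.41 and 0.44 for BCL2 and 0.29 and 0.32 for MCL1, all called as higher. Without a correction 1401 genes were called higher and 817 lower; with the corrections 785 were higher and 1359 lower, or 945 and 969.

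**Figure D2:**
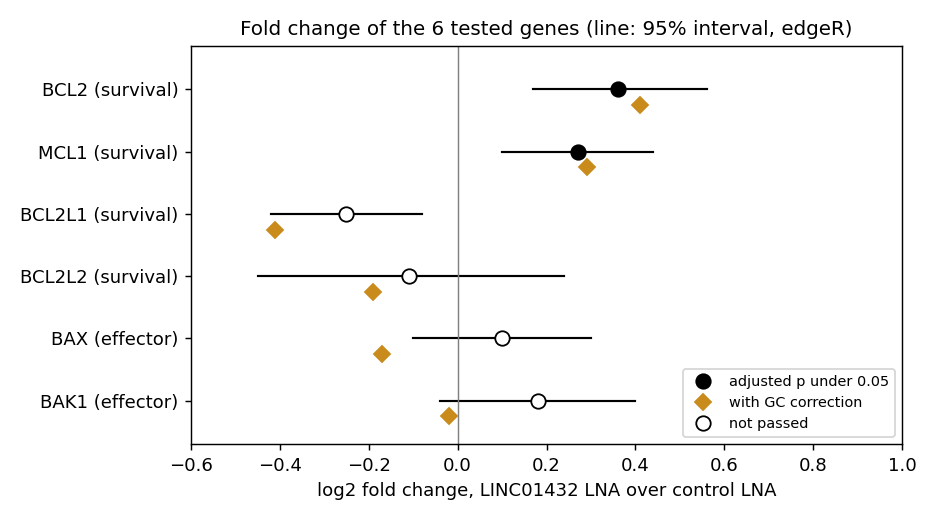
Log2 fold change of LINC01432 LNA over control LNA (x axis) for the 6 tested genes (rows), with the 95% interval from edgeR as a line, filled circles for an adjusted p under 0.05, open circles for genes that did not pass, and diamonds for the value with the first GC correction. The diamonds of BCL2 and MCL1 stay near 0.41 and 0.29, that of BCL2L1 moves to -0.41, and those of BAX and BAK1 move to -0.17 and -0.02.

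BCL2L2 (ENSG00000129473, chromosome 14, 23298790 to 23311759, plus strand) encodes BCL-w, a close relative of BCL-xL. It was counted at 4.57 and 4.67 CPM with LINC01432 LNA and at 5.25 and 4.69 CPM with control LNA. The groups were separated by a small margin, with control library 1 alone clearly higher. The log2 fold change of -0.11 did not pass, and its 95% interval of -0.45 to 0.24 holds changes in either direction (edgeR adjusted p = 0.734). Of its exonic bases 19.4% are shared with BCL2L2-PABPN1, an annotated read-through gene on the same strand that was listed at 0 in each library, and 4.92% lie opposite PPP1R3E, which had 76 and 85 counts with LINC01432 LNA and 88 and 63 with control LNA.

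BCL2A1 (ENSG00000140379, chromosome 15, 79960889 to 79971446, minus strand) encodes BFL-1, a survival protein known as an NF-kB target in lymphocytes. It was listed at 0 counts in all 4 libraries. A count of 3, the limit that a count of 0 allows for counting error only, is worth 0.103 to 0.144 CPM here. A rise within that limit was not detectable at this depth. In the same libraries 8 of the 11 listed NF-kB subunits and inhibitors rose, against 7.50% of all genes tested, as given below with the partner genes.

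BAX (ENSG00000087088, chromosome 19, 48954815 to 48961798, plus strand) encodes the effector that moves from the cytosol to mitochondria. It was counted at 30.1 and 34.0 CPM with LINC01432 LNA and at 29.9 and 30 CPM with control LNA. The control pair was nearly identical, and only LINC01432 LNA library 2 stood clearly above it. The log2 fold change of 0.10 had a standard error of 0.09 and a 95% interval of -0.10 to 0.30 (edgeR adjusted p = 0.542). With the GC corrections it was -0.17 and -0.12, and the fit that left out LINC01432 LNA library 2 gave -0.01, none of them called.

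BAK1 (ENSG00000030110, chromosome 6, 33572547 to 33580293, minus strand) encodes the effector that resides at the mitochondrial outer membrane. It was counted at 63.8 and 78.3 CPM with LINC01432 LNA and at 61.9 and 63.9 CPM with control LNA. LINC01432 LNA library 1 lay within the control range and library 2 well above it. The log2 fold change of 0.18 had a standard error of 0.10 and a 95% interval of -0.04 to 0.40 (edgeR adjusted p = 0.297). The fit that left out LINC01432 LNA library 1 gave 0.30 and called it (edgeR adjusted p = 0.000131), while leaving out library 2 gave 0.00 (edgeR adjusted p = 0.981). BAK1 (58.8% GC) and BAX (60.7% GC) both lie in decile 9 of GC content, whose median log2 fold change was 0.14. The top decile had a median of 0.41 without LINC01432 LNA library 1 and of 0.28 without library 2. The part of GC content in the values of BAX and BAK1 was measured only through the corrections. With these the median of decile 9 was -0.08 and -0.02.

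BOK (ENSG00000176720, chromosome 2, 241551424 to 241574138, plus strand) encodes an effector that does not depend on BH3-only proteins in the same way. It had 8 and 5 counts with LINC01432 LNA and 5 and 8 counts with control LNA, too few to pass the filter. The groups overlapped completely. Of the 2 effectors tested, 0 were called by edgeR, against 11.9% of all genes tested. At an unadjusted p under 0.05 there were 0, against 14.4% higher and 11.3% lower. DESeq2 called 0, against 7.61% higher and 4.97% lower of the genes for which it gave an adjusted p. With 2 genes, a count of 0 cannot be told apart from these shares.

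Levels of different genes were compared per kilobase of exon. With LINC01432 LNA the order was MCL1 (51.4 ± 0.955 CPM per kb), BAK1 (32.1 ± 4.64), BCL2L1 (18.2 ± 0.494), BAX (12.4 ± 1.07), BCL2 (8.57 ± 0.806) and BCL2L2 (1.1 ± 0.018), with BOK at 0.105 ± 0.0456 CPM per kb and BCL2A1 at 0 (SD, n = 2). With control LNA the order was the same, at 42.5 ± 1.27 CPM per kb for MCL1, 28.4 ± 0.622 for BAK1, 21.6 ± 0.396 for BCL2L1, 11.6 ± 0.0212 for BAX, 6.66 ± 0.332 for BCL2 and 1.19 ± 0.0958 for BCL2L2 (SD, n = 2). The ranges of neighbours in this order did not overlap in either group. The order of BAX and BCL2L1 depended on the length used: per kilobase of the longest transcript they averaged 23.6 ± 2.04 and 23.1 ± 0.627 CPM per kb with LINC01432 LNA, with overlapping ranges, and 22.0 ± 0.0403 and 27.4 ± 0.502 with control LNA (SD, n = 2). Per kilobase of exon, MCL1 stood above 93.7% of the tested genes with a GENCODE length, BAK1 above 90.2%, BCL2L1 above 85.5%, BAX above 77.9%, BCL2 above 69.8% and BCL2L2 above 33.8%.

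The make-up of the survival group is given as shares, with no test. MCL1 held 64.4% and 65.3% of the summed survival level per kilobase with LINC01432 LNA, against 58.5% and 59.7% with control LNA. BCL2L1 held 22.6% and 23.2% with LINC01432 LNA, against 30.7% and 29.3% with control LNA. BCL2 held 11.6% and 10% with LINC01432 LNA, against 9.02% and 9.47% with control LNA. For each of these 3 genes the groups did not overlap, and the shift of BCL2 was the smallest of them beside its spread. BCL2L2 did not overlap either, with 1.38% and 1.4% with LINC01432 LNA, against 1.76% and 1.54% with control LNA. In CPM, 54.1% of all tested genes showed such a gap. The shares are parts of the same total, so a larger share of MCL1 and a smaller share of BCL2L1 are not separate observations. The effector group was divided alike: BAK1 held 71% and 72.8% with LINC01432 LNA, against 70.7% and 71.2% with control LNA, and BAX held nearly all of the rest.

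**Figure D3:**
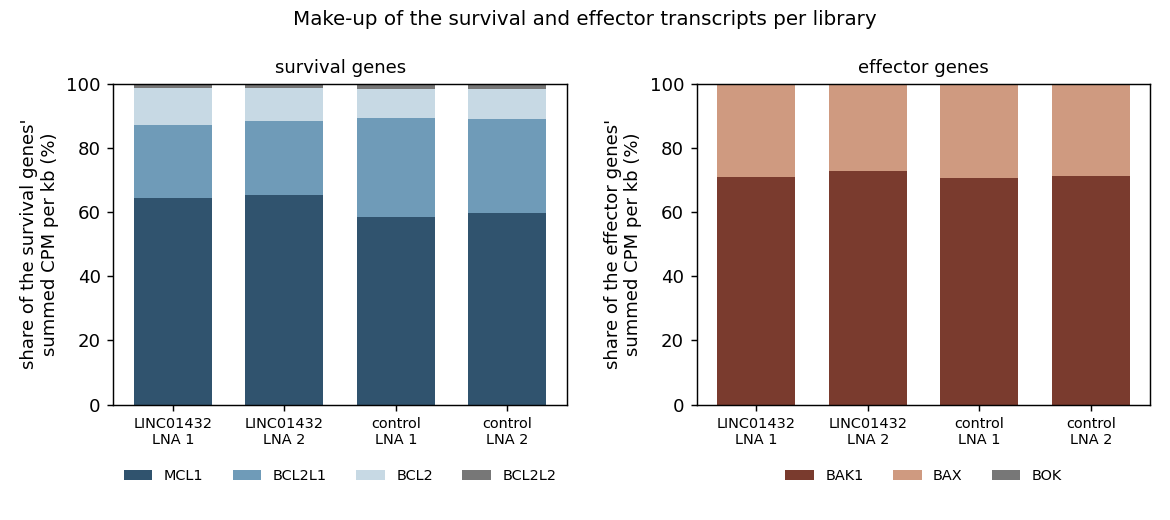
Share of the summed CPM per kilobase of exon (y axis, percent) that each survival gene (left) and each effector gene (right) held in every library, with the LINC01432 LNA libraries left of the control LNA libraries. The MCL1 block is larger (64.4% and 65.3%, against 58.5% and 59.7%) and the BCL2L1 block smaller with LINC01432 LNA, while the BAK1 and BAX blocks are alike.

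Ratios of counts within a library do not depend on how libraries are scaled. MCL1 had 3.76 and 3.71 counts for each BCL2L1 count with LINC01432 LNA, against 2.51 and 2.68 with control LNA. BCL2 had 1.82 and 1.54 counts for each BCL2L1 count with LINC01432 LNA, against 1.04 and 1.15 with control LNA. Both ratios were higher in each LINC01432 LNA library than in either control. This follows from the levels given above, where MCL1 and BCL2 lay above both controls and BCL2L1 below them. The ratios are therefore not separate observations, and how often other gene pairs separate was not counted. BAK1 had 1.08 and 1.28 counts for each BCL2L1 count with LINC01432 LNA, against 0.853 and 0.903 with control LNA. For each MCL1 count, BAK1 had 0.288 and 0.344 with LINC01432 LNA, against 0.34 and 0.336 with control LNA, and the groups overlapped. For each BAK1 count, BAX had 0.472 and 0.434 with LINC01432 LNA, against 0.483 and 0.469 with control LNA, which overlapped too. BAX had 0.280 and 0.361 counts for each BCL2 count with LINC01432 LNA, against 0.395 and 0.369 with control LNA, a separation carried mostly by LINC01432 LNA library 1. The ratio of MCL1 to BCL2 was 2.06 and 2.42 with LINC01432 LNA, against 2.41 and 2.34 with control LNA, and overlapped. The summed survival level stood at 1.94 and 1.64 times the summed effector level per kilobase with LINC01432 LNA, against 1.80 and 1.79 times with control LNA. The LINC01432 LNA libraries lay on either side of the controls.

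Sequence upstream of the genes was read from RefSeq promoter windows on GRCh38.p14, which run from 250 bases before a start site to 50 after it; 6 of the 8 genes matched, in 7 windows, and BCL2L2 and MCL1 did not. Both strands were searched for 4 motifs. These were the core of the interferon-stimulated response element (GAAANNGAA), the gamma-activated site bound by STAT proteins (TTCNNNGAA), a core of the NF-kB site (GGNNTTTCC) and the core of the ATF4 and CEBP element (TGATGNAA). They occurred in 8.11%, 7.66%, 6.26% and 3.62% of 35116 promoter windows. In 6 of the 7 windows no match was found, those of BCL2 and BCL2L1 included. All 300 bases of the BCL2 window lie in annotated exons, after the GENCODE start of the gene, so bases before that start were not searched. Of one BCL2L1 window 280 bases lie in annotated exons, and of the other 76. The first stretch shows a BCL2L1 window where it lies outside annotated exons, because BCL2L1 ran below its controls while BCL2 and MCL1 ran above theirs; its 47.8% GC is below that of its exons. The other 3 show the matches at BCL2A1, in capitals with flanking bases, because this gene held every match. It was listed at 0 counts. Its window has 41% GC, against 52% to 70.7% in the other windows, and the share of windows with any of the 4 motifs was not counted. The BCL2A1 matches begin 132, 168 and 63 bases before the start site, overlap no other match, and lie within annotated BCL2A1 exons in GENCODE. All are written 5′ to 3′ on the minus strand, which is the strand of both genes.
BCL2L1, chr20:31723990-31724213: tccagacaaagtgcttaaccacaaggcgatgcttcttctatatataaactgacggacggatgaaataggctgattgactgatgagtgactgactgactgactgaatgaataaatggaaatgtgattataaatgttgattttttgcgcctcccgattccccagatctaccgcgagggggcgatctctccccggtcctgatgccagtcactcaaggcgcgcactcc
BCL2A1, chr15:79971309-79971338, interferon-stimulated response element core on the opposite strand: attttaaactTTCTCTTTCatacatgacat
BCL2A1, chr15:79971345-79971374, gamma-activated site: aggaagtggcTTCTCTGAAacattttcctc
BCL2A1, chr15:79971241-79971270, ATF4 and CEBP element core: atattataaagTGATGCAAacagaaattcc

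The BH3-only genes, whose products engage the survival proteins, were described beside them. Of the 8 listed, all 8 were tested, and 3 rose and 0 fell, against 7.50% and 4.37% of all genes tested. The median log2 fold change was 0.65, against 0.01 over all genes tested. At an unadjusted p under 0.05, 6 were higher and 0 lower, against 14.4% and 11.3% of all genes tested. DESeq2 called 3 and 0, against 7.61% and 4.97% of the genes for which it gave an adjusted p. BCL2L11, which encodes BIM, had the most CPM of the listed genes and did not pass (log2 fold change -0.06, edgeR adjusted p = 0.748). It was counted at 52.8 and 44.3 CPM with LINC01432 LNA and at 50.3 and 50.9 CPM with control LNA. PMAIP1 encodes NOXA, which binds MCL1 in particular, and was counted at 8.06 and 8.56 CPM with LINC01432 LNA and at 4.77 and 4.97 CPM with control LNA (1.71-fold, edgeR adjusted p = 0.00375). BBC3 encodes PUMA, which binds all survival proteins, and was counted at 5.03 and 5.43 CPM with LINC01432 LNA and at 2.16 and 2.24 CPM with control LNA (2.38-fold, edgeR adjusted p = 0.00114). In both genes the LINC01432 LNA libraries were closely matched and well above the controls. BAD, which binds BCL2 and BCL-xL, rose 3.30-fold (edgeR adjusted p = 0.000122), but 23.7% of its exonic bases lie opposite another gene. Both GC corrections made the rises of BBC3 and BAD smaller. The log2 fold change of BBC3 was then 0.79 and 0.85, and that of BAD was 1.32 with the second form (1.72 without a correction). PMAIP1 went the other way, to 0.85 and 0.88 (0.77 without a correction). All 3 were called with either correction, and the list median above carries none. BIK was at 7.64 and 11.4 CPM with LINC01432 LNA and at 5.74 and 7.05 CPM with control LNA and did not pass (edgeR adjusted p = 0.0609), though it was called without LINC01432 LNA library 1 (log2 fold change 0.83), without control library 2 (0.73) and without a filter on low counts (0.58). It was not called without LINC01432 LNA library 2 (0.25, edgeR adjusted p = 0.275), without control library 1 (0.43, edgeR adjusted p = 0.316) or with the GC corrections (0.46 and 0.52). PMAIP1 had 0.0364 and 0.0376 counts for each MCL1 count with LINC01432 LNA, against 0.0262 in each control library, and BBC3 had 0.0227 and 0.0238, against 0.0119 and 0.0118. Without LINC01432 LNA library 1, a fit that called 26.4% of all genes, 5 of the BH3-only genes were called higher and 1 lower; BAD, BBC3 and PMAIP1 were called whichever library was left out.

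Other relatives of the family were listed too. Of 11 listed, 7 were tested, and 0 rose and 2 fell, against 7.50% and 4.37% of all genes tested. The median log2 fold change was 0.03. At an unadjusted p under 0.05, 0 were higher and 2 lower, against 14.4% and 11.3% of all genes tested, and DESeq2 called 0 and 1. BCLAF1, which encodes a nuclear RNA-processing protein first found as a BCL2 partner, was counted at 111 and 100 CPM with LINC01432 LNA and at 143 and 142 CPM with control LNA (0.741-fold, edgeR adjusted p = 0.00546). BNIP3L, which encodes the mitophagy receptor NIX, was counted at 11.1 and 10.3 CPM with LINC01432 LNA and at 13.6 and 14 CPM with control LNA (0.774-fold, edgeR adjusted p = 0.0462), and it was called neither by DESeq2 (adjusted p = 0.143) nor with the GC corrections (edgeR adjusted p = 0.0777 and 0.107). Neither gene was called without control library 1 or without control library 2, with log2 fold changes of -0.45 and -0.45 for BCLAF1 and -0.41 and -0.36 for BNIP3L. BCL2L12 did not pass (log2 fold change 0.20, edgeR adjusted p = 0.210), and 33.1% of its exonic bases lie opposite another gene; BNIP2 had a log2 fold change of -0.14 (edgeR adjusted p = 0.295), and of -0.03 and -0.01 with the GC corrections. Without LINC01432 LNA library 1, 1 relative was called higher and 3 lower, BCL2L12 (0.29, edgeR adjusted p = 0.00236) and BNIP2 (-0.20, edgeR adjusted p = 0.0263) among them; without library 2 these were 0.06 and -0.12 and were not called.

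A further list held genes that set the stability of MCL1 or the state of BAX and BAK1. All 22 were tested, and 0 rose and 1 fell, against 7.50% and 4.37% of all genes tested. The other 21 did not pass, and the median log2 fold change was -0.10. At an unadjusted p under 0.05, 2 were higher and 6 lower, against 14.4% and 11.3% of all genes tested, and DESeq2 called 0 and 1. TMBIM6, which encodes BAX inhibitor 1, a membrane protein of the endoplasmic reticulum, was counted at 341 and 395 CPM with LINC01432 LNA and at 469 and 476 CPM with control LNA (0.779-fold, edgeR adjusted p = 0.0246); it was not called without control library 1 (edgeR adjusted p = 0.310) or without control library 2 (edgeR adjusted p = 0.352). HUWE1, a ubiquitin ligase that marks MCL1 for degradation, was at 1180 and 1050 CPM with LINC01432 LNA and at 1350 and 1280 CPM with control LNA. It did not pass (edgeR adjusted p = 0.128), though it did with the first GC correction (log2 fold change -0.29, edgeR adjusted p = 0.0477) and without a filter on low counts (edgeR adjusted p = 0.0249). HUWE1 was not called with the second GC correction (-0.24, edgeR adjusted p = 0.0924), with the replicate number as a block (edgeR adjusted p = 0.104) or by DESeq2 (adjusted p = 0.0679). Leaving out LINC01432 LNA library 1 gave -0.34 and leaving out library 2 gave -0.17. USP13, a deubiquitinase reported to stabilise MCL1, did not pass (log2 fold change -0.33, edgeR adjusted p = 0.0763), nor did CCNT1, a subunit of the kinase complex that drives transcription of short-lived messages such as that of MCL1 (log2 fold change -0.22, edgeR adjusted p = 0.125). USP13 was called without a filter on low counts (edgeR adjusted p = 0.0266) and without LINC01432 LNA library 1 (-0.51), but not without library 2 (-0.19, edgeR adjusted p = 0.126). CCNT1 was called without LINC01432 LNA library 1 (-0.31) and without library 2 (-0.17), and was -0.15 and -0.12 with the GC corrections, not called. The counts of this list moved with the library left out, as did those over all genes: 1 rose and 7 fell without LINC01432 LNA library 1 (26.4% of all genes called), 0 rose and 6 fell without library 2 (21.6%), and 0 were called without control library 1 (3.82%) or without control library 2 (5.27%).

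Among 10 apoptosome and caspase genes, 0 were called by edgeR, against 11.9% of all genes tested, and 0 by DESeq2. The median log2 fold change was -0.05. At an unadjusted p under 0.05, 0 were higher and 2 lower, against 14.4% and 11.3% of all genes tested. CYCS, which encodes cytochrome c, was at 29.9 and 22.8 CPM with LINC01432 LNA and at 33.6 and 33.1 CPM with control LNA (edgeR adjusted p = 0.0810). The caspase inhibitor XIAP was at 35.7 and 29.6 CPM with LINC01432 LNA and at 39.4 CPM in both controls (edgeR adjusted p = 0.0975). In both genes LINC01432 LNA library 2 was the lower, and without LINC01432 LNA library 1 both were called as lower, with log2 fold changes of -0.57 and -0.43, as was CASP8, an initiator caspase (-0.23, edgeR adjusted p = 0.0162). Without LINC01432 LNA library 2 none of these 3 was called, at -0.17 for CYCS, -0.16 for XIAP and -0.13 for CASP8. CYCS was also called without a filter on low counts (edgeR adjusted p = 0.0156). Among 11 NF-kB subunits and inhibitors, 8 rose and 0 fell, against 7.50% and 4.37% of all genes tested (median log2 fold change 0.93). The 3 that did not pass were the subunits NFKB1, RELA and REL (edgeR adjusted p = 0.075, 0.314 and 0.353). At an unadjusted p under 0.05, 9 were higher and 0 lower, against 14.4% and 11.3% of all genes tested, and DESeq2 called 8 and 0. A link of this list to the BCL2 family was not tested. NFKBIZ, RELB, NFKBIA and NFKB2 rose 3.88-fold, 2.94-fold, 1.91-fold and 1.93-fold (edgeR adjusted p = 0.000159 or less). Both GC corrections made the rises of RELB, NFKB2 and NFKBIA smaller, but not that of NFKBIZ. With the first correction the log2 fold change was 1.14 for RELB and 0.62 for NFKB2. Each of these genes was still called with either correction, and the list median above carries none.

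**Figure D4:**
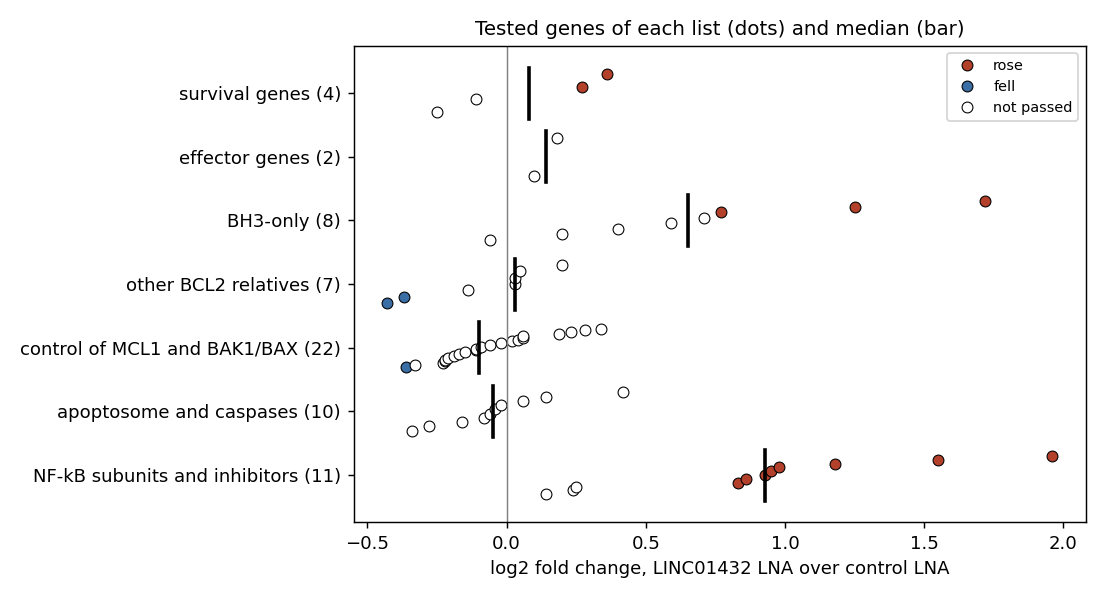
Log2 fold change of LINC01432 LNA over control LNA (x axis) of every tested gene among the survival and effector genes and the 5 partner lists (rows, marker lists not drawn, number of tested genes in brackets), coloured where the gene rose or fell at an edgeR adjusted p under 0.05, with a bar at the list's median. The BH3-only and NF-kB lists have medians of 0.65 and 0.93, and the other 5 groups drawn have medians between -0.10 and 0.14.

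The patterns over the 4 libraries most like those of the 6 tested genes were looked for among 58 tested genes of the partner lists, by the root mean square difference of centred log2 CPM. MARCHF5, a mitochondrial ubiquitin ligase, was nearest to MCL1 (0.0423), VDAC1, a channel of the outer membrane, to BCL2L1 (0.0441), VDAC2 to BCL2L2 (0.0379), DIABLO, which encodes an antagonist of XIAP, to BCL2 (0.0582), BAG1, a co-chaperone and BCL2 partner, to BAX (0.0242) and BCL2L12 to BAK1 (0.0379). None of these 6 nearest genes was called by edgeR. With 4 libraries in 2 groups, these values describe likeness only.

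**Figure D5:**
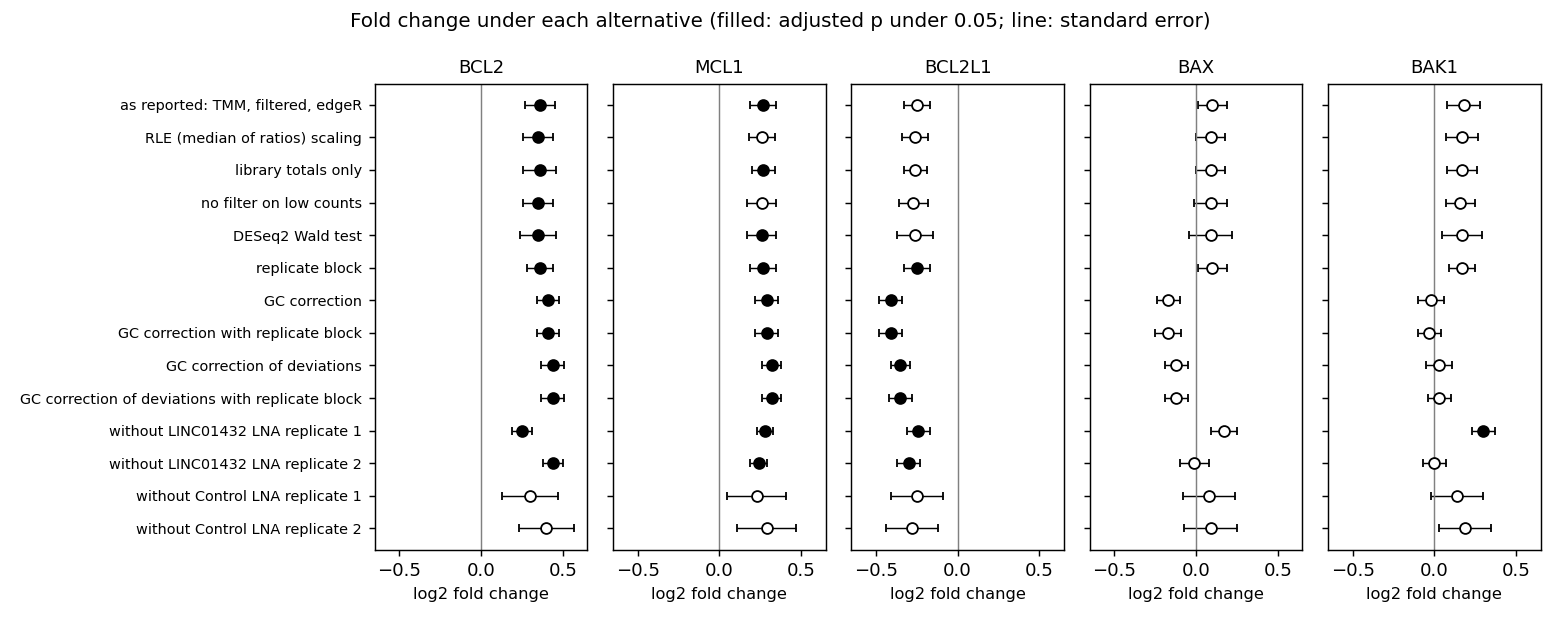
Log2 fold change of LINC01432 LNA over control LNA (x axis) for BCL2, MCL1, BCL2L1, BAX and BAK1 (panels) as reported and under each alternative (rows), with the standard error as a line and filled circles for an adjusted p under 0.05. BCL2 stays between 0.25 and 0.44, MCL1 between 0.23 and 0.32 and BCL2L1 between -0.41 and -0.24 over the alternatives, while BAX runs from -0.17 to 0.17 and BAK1 from -0.03 to 0.30.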

How the data were processed

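Total RNA of 4 libraries was sequenced. The labels name poly(A) selection in one place and removal of ribosomal RNA in another. The authors deposited raw whole-number counts for each gene. The tools named, per the submitters' processing notes, are bcl2fastq, Salmon 1.10.0, STAR 2.7.11b and Subread's featureCounts 2.0.8, with build GRCh38; annotation release and strand setting: not given in the sources used here. The 92 spike-in and 5 transgene rows, at most 4.2e-05% of a library, were left out. A table of Ensembl IDs gave symbols for 61481 of 78932 gene rows; GENCODE 29 (GRCh38) gave positions, exon lengths, overlaps and exonic GC content for 57356. Counts were tested in R 4.3.3 with the quasi-likelihood test of edgeR 4.0.16 (TMM, filterByExpr with a minimum count of 10 and total of 15, group as the only term, 18680 genes, biological coefficient of variation 7.13%); adjusted p-values cover all genes tested. Standard errors came from the F statistic. The procedure was checked on simulated counts. The alternatives were other scalings, no filter, DESeq2 1.42.0, the replicate number as a block, corrections for GC content (by lowess with a span of 0.3 on log2 CPM in each library or, added after the data were seen, on deviations from the gene's mean) and leaving out each library. The genes, lists and tests were chosen with earlier results of these data known. All 8 genes are named, then LINC01432, up to 4 genes of each partner list with the smallest p, and the nearest gene to each tested member. Genes whose exons overlap a member's are named above for BCL2L1 and BCL2L2. The others are GGNBP1 (BAK1), BOK-AS1 (BOK) and ADAMTSL4-AS1 (MCL1), with no more than 2 counts in any library. The 3 named plasma cell markers, LYZ, S100A8, COL1A1, CD14, PECAM1, BCL2L11, NFKB1, RELA and REL were named after their values were seen.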

Additional observations from a re-analysis of the deposited data

How the results depend on the processing

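BCL2, MCL1, BCL2L1 and BCL2L2 kept their direction under all 13 alternatives; BCL2 was called in 11 of them, MCL1 in 9, BCL2L1 in 7 and BCL2L2 in 0. The number of survival genes called (2) was 1 with the median-of-ratios scaling and 1 without a filter on low counts, and leaving out each library gave 0 to 3 survival genes and 0 to 1 effector genes. Over all genes, leaving out each library gave 766 to 5228 calls; there the spread comes from the remaining pair, and the single library is taken to vary as that pair does. The replicate numbers are shared between the groups, but nothing in the labels says that they pair the libraries, and the correlation of the deviations was 0.135. With the replicate block 3862 genes were called instead of 2218, and BCL2L1 was called as lower (-0.25, edgeR adjusted p = 0.0167), as were USP13, CCNT1, CYCS and XIAP, while BIK was called as higher; with the block and either GC correction 3992 and 3581 genes were called, and 3 survival genes. Signs turned, none of them called, for BAX with the GC corrections (-0.17 and -0.12, with and without the block) and without LINC01432 LNA library 2 (leaving out each library gave -0.01 to 0.17), for BAK1 with the first GC correction (-0.02, and -0.03 with the block), and for BCL2L12 with it (-0.01). Apart from the changes the GC corrections make by construction, the cause was not tested. With the longest transcript as length, BAX held 42.4% of the effector level with LINC01432 LNA and 43.6% with control LNA. BOK and BCL2A1 are limited by depth.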
